A study of Homo sapiens with 10 samples.

Results

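The E2F transcription factors and the pocket proteins that bind them were followed after knockdown of DDX41, a DEAD-box helicase, in U2OS cells. The set held 10 genes, E2F1 to E2F8, RB1 and RBL1, which belong to these families by name, out of 63299 gene entries. U2OS is a human osteosarcoma cell line. Cells received pooled control siRNAs (siCtrl) or pooled siRNAs against DDX41 (siDDX41), and polyadenylated RNA was sequenced 48 h later, with 5 libraries per group. Between 23393764 and 24598860 reads were counted per siCtrl library and between 21807041 and 24896398 per siDDX41 library. Effects of losing DDX41 and effects of the siRNA pools on other transcripts cannot be told apart. The labels name replicates but not separate cultures, so the p-values measure the spread between these libraries, which may be technical.

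E2F proteins bind DNA near the start of genes for DNA replication and cell division. E2F1, E2F2 and E2F3 are known as activators, which switch on S phase genes once cyclin-dependent kinases have phosphorylated the retinoblastoma protein and released them. E2F4 and E2F5 act mostly as repressors together with the pocket proteins, E2F6 represses without a pocket protein, and E2F7 and E2F8 are atypical members that bind DNA without a dimerisation partner and repress activator targets late in S phase. RB1 encodes the retinoblastoma protein, a tumour suppressor that is often lost in osteosarcoma, and RBL1 encodes its relative p107. The genes of this network rise and fall with the cell cycle, and in these bulk libraries fewer cells in a phase and less RNA per cell cannot be told apart.

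DDX41 itself was measured at 49.1, 49.4, 47.3, 47.2 and 50.5 normalised read counts (CPM, counts scaled to the same library total) in siCtrl libraries 1 to 5. In siDDX41 libraries 1 to 5 it was measured at 11.5, 13.7, 12.4, 11.2 and 12.3 CPM. The groups did not overlap, and the log2 fold change was -1.99 ± 0.05 (SE), adjusted p = 4.5e-24 (edgeR quasi-likelihood test with Benjamini-Hochberg adjustment over all 16143 tested genes). Every other adjusted p-value here is from the same fit, except those given for alternative fits, which come from the fit named. Genes with an adjusted p-value under 0.01 were called up- or downregulated. Mitochondrial genes held between 1.13% and 1.69% of counts in siCtrl libraries and between 2.00% and 2.29% in siDDX41 libraries, without overlap, and the part of this difference in the results was not tested. Of 7 mesenchymal or osteosarcoma markers and 4 markers of other cells, VIM and SPARC, genes of mesenchymal cells, stood at a mean of 2465 and 2807 CPM in siCtrl libraries but COL1A2 at 0.448 CPM, and the epithelial genes CDH1 and EPCAM and the leukocyte gene PTPRC stood at 0.874, 7.99 and 0.333 CPM.

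Among the 10 genes, 9 passed the filter on low counts. After DDX41 knockdown 3 of these 9 were upregulated (E2F3, E2F5 and E2F7) and 3 were downregulated (E2F1, E2F4 and E2F8). Over all tested genes 30.3% were upregulated and 32.1% downregulated, and 62.4% were called in either direction, so these counts lie near the background. E2F6, RB1 and RBL1 were not called. Among the called genes, 1 rose and 1 fell in each class of E2F, activators, repressors and atypical members. The split into activators and repressors thus did not follow the direction of change. The activator E2F2 was listed at 0 and could not be read, so this covers only the tested genes. Only E2F1 and E2F5 changed by more than 0.5 on the log2 scale.

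**Figure D1:**
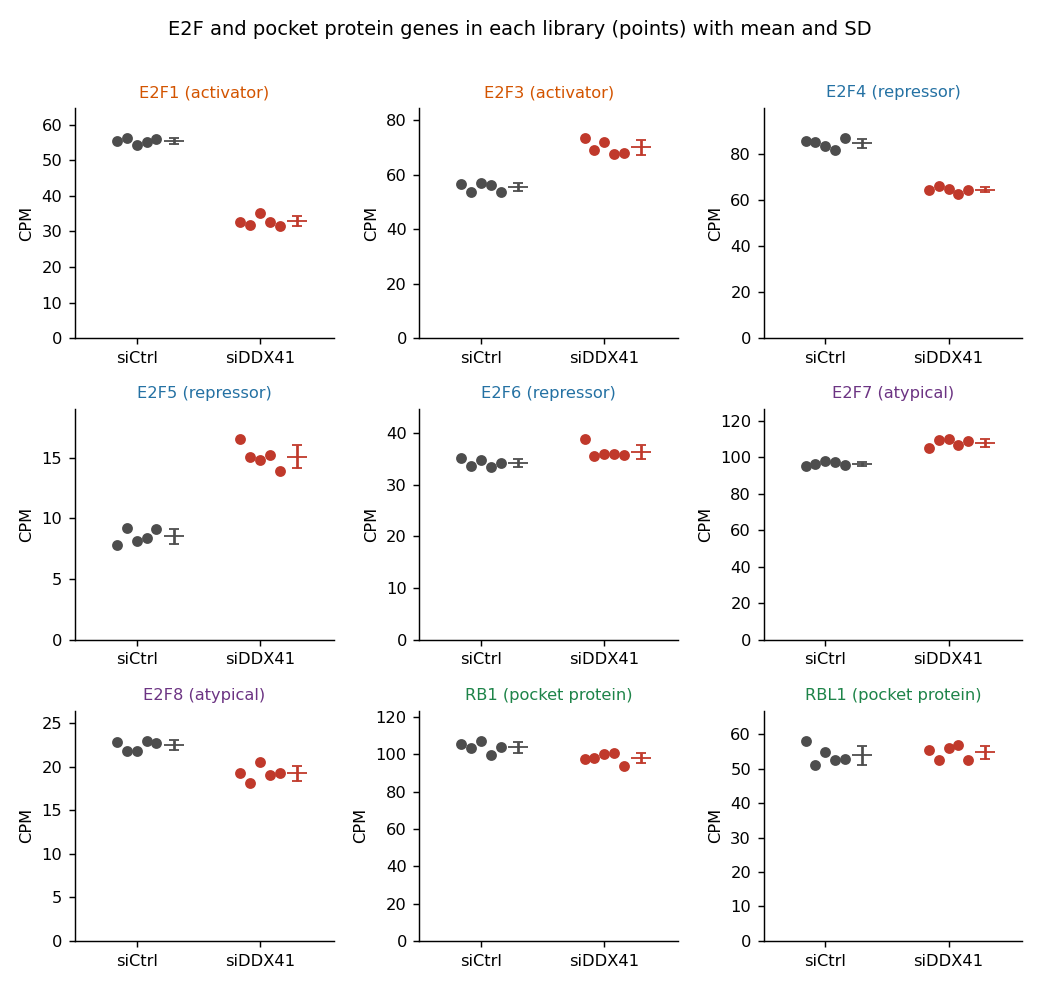
Normalised read count (CPM, linear axis from 0) of 9 genes in each siCtrl and siDDX41 library (points), with the mean and SD of 5 libraries beside them. E2F1, E2F4 and E2F8 are lower in every siDDX41 library than in any siCtrl library, E2F3, E2F5, E2F6 and E2F7 are higher in every one, and the groups overlap for RB1 and RBL1; of all tested genes 55.9% had groups without overlap.

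E2F1, the activator best known for driving entry into S phase and for inducing apoptosis genes, fell the most. Its level was 55.5, 56.2, 54.2, 55.1 and 56.0 CPM in siCtrl libraries 1 to 5. In siDDX41 libraries 1 to 5 its level was 32.8, 31.9, 35.2, 32.5 and 31.7 CPM. All siDDX41 libraries lay well below the lowest siCtrl library, and the libraries within a group differed little from each other. The log2 fold change was -0.75 ± 0.04 (SE), adjusted p = 5.6e-17, which left 0.593 of the control level. E2F3, the other activator that was measured, moved the opposite way. Its level was 56.4, 53.7, 56.8, 56.2 and 53.7 CPM in siCtrl libraries and 73.3, 68.9, 72.0, 67.6 and 67.7 CPM in siDDX41 libraries. Every siDDX41 library was above every siCtrl library, with a log2 fold change of 0.34 ± 0.03 (SE), adjusted p = 7.0e-10. The pseudogene E2F3P1, which could share reads with E2F3, held 12 counts over all libraries against 14793 for E2F3.

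E2F2, the third activator, was listed at 0 in all 10 libraries. It lies in a run of 6 neighbouring protein-coding genes that were all listed at 0 in every library, HNRNPR, ZNF436, TCEA3, ASAP3, E2F2 and ID3 (chr1:23303771-23559501). HNRNPR encodes a splicing factor that cells use throughout the body, and the genes on either side of the run had counts, 5613 over all libraries for HTR1D and 156095 for RPL11. The 0 of E2F2 can therefore not be read as a lack of expression, and the cause of the empty run was not tested. The neighbours were looked up after the value of E2F2 was seen. In the sums of activators below, E2F2 adds 0.

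Promoter windows of 300 bases around the gene start were read from RefSeq (GRCh38.p14) for 8 of the 10 genes, and the E2F site was searched as TTTCCCGC, TTTCGCGC, TTTGCCGC or TTTGGCGC on both strands. E2F5 and E2F8 had no entry. The window listed for RB1 starts 172706 bases from the annotated gene start and was not used. E2F1, E2F2, E2F3 and RBL1 held a match, against 3.31% of all 35116 windows, and E2F4, E2F6, E2F7 and the second window of E2F3 held none. The windows of E2F1, E2F3 and RBL1 are printed since these genes carry the site and yet went different ways, with the matches in capitals and each sequence running 5′ to 3′ on the strand of the gene.
E2F1, chr20:33686336-33686635, minus strand: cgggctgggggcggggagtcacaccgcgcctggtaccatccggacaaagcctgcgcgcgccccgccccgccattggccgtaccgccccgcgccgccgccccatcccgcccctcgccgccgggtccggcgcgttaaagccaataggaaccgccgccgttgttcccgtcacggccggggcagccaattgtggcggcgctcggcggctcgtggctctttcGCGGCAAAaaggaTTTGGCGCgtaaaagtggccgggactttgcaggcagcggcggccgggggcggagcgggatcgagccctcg
E2F3, chr6:20401629-20401928, plus strand: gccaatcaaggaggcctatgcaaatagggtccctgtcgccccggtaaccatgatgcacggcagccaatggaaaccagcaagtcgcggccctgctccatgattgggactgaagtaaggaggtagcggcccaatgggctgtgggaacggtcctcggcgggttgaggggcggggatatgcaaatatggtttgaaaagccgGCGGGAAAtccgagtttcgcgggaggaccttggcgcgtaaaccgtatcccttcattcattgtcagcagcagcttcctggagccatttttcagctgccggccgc
RBL1, chr20:37095948-37096247, minus strand: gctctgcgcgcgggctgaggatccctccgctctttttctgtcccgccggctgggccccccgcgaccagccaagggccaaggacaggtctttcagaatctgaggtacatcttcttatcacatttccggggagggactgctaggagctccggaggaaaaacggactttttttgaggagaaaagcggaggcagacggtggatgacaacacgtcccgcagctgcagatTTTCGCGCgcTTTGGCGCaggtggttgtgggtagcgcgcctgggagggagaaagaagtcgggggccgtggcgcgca
E2F1 held 2 matches, TTTGCCGC on the opposite strand and TTTGGCGC on its own, beginning 33 and 20 bases before the start. RBL1 likewise held 2 matches, TTTCGCGC and TTTGGCGC, beginning 26 and 16 bases before the start. In E2F3 a single TTTCCCGC lay on the opposite strand, beginning 53 bases before the start. A match is a run of letters and does not show that a factor binds there. Among these 3 genes E2F1 was downregulated, E2F3 was upregulated and RBL1 was not called. Counts per gene do not tell the printed window of E2F3 from its second window, which held no match.

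The repressor E2F4, the most abundant E2F of many resting cells, was downregulated. Its level was 85.6, 85.2, 83.3, 81.6 and 86.7 CPM in siCtrl libraries 1 to 5 and 64.5, 65.8, 64.7, 62.6 and 64.3 CPM in siDDX41 libraries 1 to 5. The groups were far apart compared with the spread within them. The log2 fold change was -0.39 ± 0.03 (SE), adjusted p = 2.8e-12.

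E2F5, the closest relative of E2F4, rose. Its level was 7.80, 9.18, 8.12, 8.39 and 9.12 CPM in siCtrl libraries and 16.5, 15.0, 14.8, 15.2 and 13.9 CPM in siDDX41 libraries. It was the lowest measured member in both groups, and the lowest siDDX41 library was still above the highest siCtrl library. The log2 fold change was 0.82 ± 0.06 (SE), adjusted p = 2.3e-12, or 1.77-fold. This value is uncertain, because 997 bases of its exons (16.6%) are shared with RBIS on the opposite strand, which held 16019 counts against 2781 for E2F5. The kit was stranded but the strand setting of the counting was not given in the sources used here. RBIS was not called, at 68.4 CPM in siCtrl and 67.0 CPM in siDDX41 libraries, with a log2 fold change of -0.03 ± 0.03 (SE), adjusted p = 0.48.

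E2F6, which represses as a subunit of a Polycomb complex, was not called. Its level was 35.2, 33.7, 34.7, 33.4 and 34.2 CPM in siCtrl libraries and 38.8, 35.5, 36.0, 36.0 and 35.8 CPM in siDDX41 libraries. The siDDX41 libraries were all higher, siDDX41 library 1 the most, yet the log2 fold change was small, 0.09 ± 0.04 (SE), adjusted p = 0.047, with a 95% interval of 0.01 to 0.17.

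The atypical members also split. E2F7 was measured at 95.2, 96.5, 97.7, 97.4 and 95.7 CPM in siCtrl libraries and 105, 109, 109.8, 107 and 109 CPM in siDDX41 libraries. It rose slightly, with a log2 fold change of 0.16 ± 0.03 (SE), adjusted p = 9.5e-06, and the groups did not overlap. E2F8, which works alongside E2F7 and can pair with it, was measured at 22.8, 21.9, 21.8, 23.0 and 22.8 CPM in siCtrl libraries and 19.3, 18.2, 20.6, 19.1 and 19.2 CPM in siDDX41 libraries. It fell, with a log2 fold change of -0.22 ± 0.05 (SE), adjusted p = 1.7e-04, again without overlap.

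Of the pocket proteins in the set, RB1 and RBL1 were not called. RB1 was measured at 105, 103, 107, 99.4 and 104 CPM in siCtrl libraries and 97.2, 98.0, 100.4, 100.5 and 93.7 CPM in siDDX41 libraries. The ranges overlapped, since siCtrl library 4 lay below siDDX41 libraries 3 and 4. The log2 fold change was -0.08 ± 0.03 (SE), adjusted p = 0.017, with a 95% interval of -0.15 to -0.02. RB1 passed the threshold in 3 of 17 alternative fits, with scaling by library totals (adjusted p = 0.0074), with a minimum mean of 1 CPM (adjusted p = 0.0092) and without siCtrl replicate 4 (adjusted p = 0.0083), and over all 17 its adjusted p-value ranged from 0.0074 to 0.073. RBL1 was measured at 58.2, 51.2, 54.7, 52.5 and 52.8 CPM in siCtrl libraries and 55.6, 52.6, 56.0, 56.8 and 52.7 CPM in siDDX41 libraries. These ranges overlapped nearly in full, and the log2 fold change was 0.02 ± 0.04 (SE), adjusted p = 0.61, with a 95% interval of -0.06 to 0.10. The antisense gene ENSG00000269846, which shares 213 exon bases with RBL1, held 31 counts over all libraries.

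**Figure D2:**
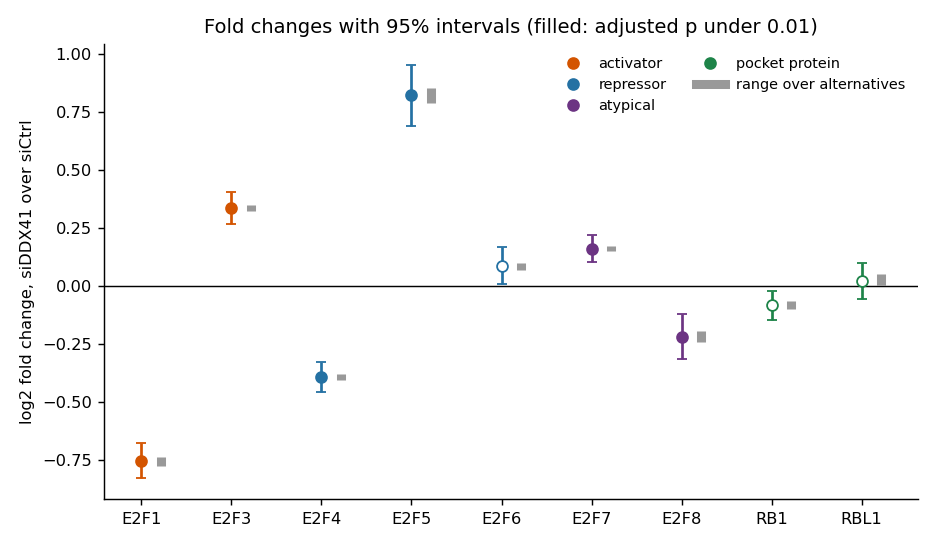
Log2 fold change of siDDX41 over siCtrl for 9 genes (points, filled where the adjusted p-value was under 0.01) with 95% intervals, coloured by role, and the range over 17 alternative fits in grey. Each class of E2F has 1 gene above and 1 gene below 0 among those called, and the 6 called genes keep their sign in every alternative.

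Levels were compared between genes as TPM, which divides counts by exon length and scales each library to the same sum. Relative to CPM, this scale ran lower in siDDX41 than in siCtrl libraries. HTR1D had a mean of 23.7 CPM in both groups, but 31.3 TPM in siCtrl and 30.0 TPM in siDDX41 libraries. RBL1 went from 53.9 to 54.7 CPM, but from 39.7 to 38.7 TPM. Changes of a TPM level or sum between groups carry this offset, which cancels in ratios within a library. In siCtrl libraries E2F4 was highest at 103 ± 2.75 TPM (SD, n = 5), followed by E2F1 at 90.3 ± 1.32 TPM. RB1 at 70.7 ± 2.55 TPM and E2F7 at 67.3 ± 1.23 TPM came next and overlapped each other. E2F3 followed at 46.8 ± 1.36 TPM, above RBL1 at 39.7 ± 1.94 TPM and E2F6 at 36.9 ± 0.937 TPM, which overlapped. E2F8 at 23.8 ± 0.406 TPM and E2F5 at 6.23 ± 0.465 TPM closed the order. In siDDX41 libraries the order changed at the top. E2F4 at 75.3 ± 1.93 TPM and E2F7 at 72.2 ± 1.93 TPM now overlapped. E2F1 at 51.4 ± 2.34 TPM now stood below E2F3 at 56.7 ± 2.12 TPM in each of the 5 libraries, although their ranges overlapped. The ranks below E2F1 stayed in the same order. Part of this order depended on the length used. With the longest transcript in place of all exons, the mean of E2F1 lay below that of RB1 in siCtrl libraries, E2F7 lay below RB1 and apart from E2F4 in siDDX41 libraries, the ranges of E2F1 and E2F3 in siDDX41 libraries no longer overlapped, and the mean of E2F6 lay above that of RBL1 in both groups.

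**Figure D3:**
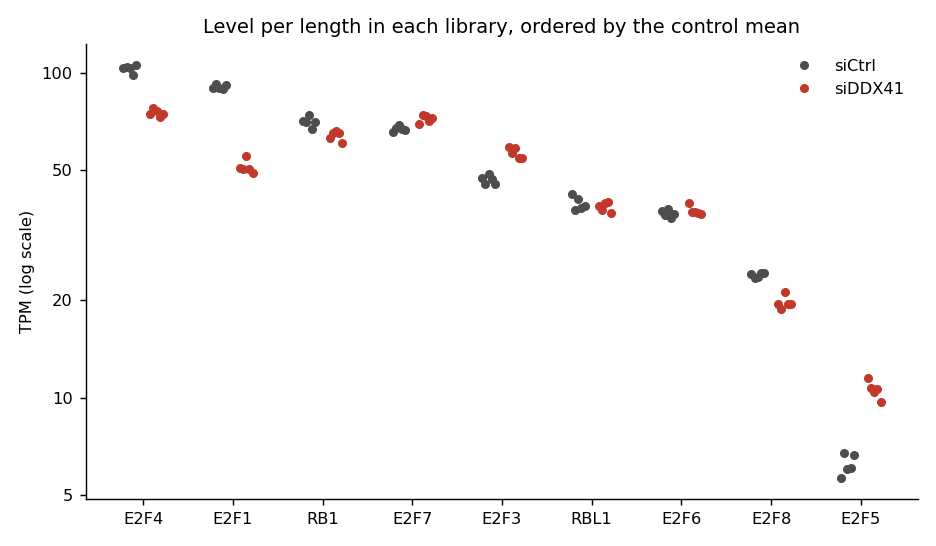
Level per length (TPM, log axis) of 9 genes in each siCtrl and siDDX41 library, ordered by the mean in siCtrl libraries. E2F1 lies above E2F3 in every siCtrl library, with means of 90.3 and 46.8 TPM, and overlaps it in siDDX41 libraries.

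To contrast activators with repressors, the TPM of E2F1, E2F2 and E2F3 were summed per library and divided by the sum of E2F4, E2F5 and E2F6. Since the 0 of E2F2 is uncertain, these sums speak only for E2F1 and E2F3, and the ratios of the full class are unknown. The height of the ratios also depends on the length used. In siCtrl libraries E2F1 stood at 90.3 TPM with all exons and 64.1 TPM with the longest transcript, and E2F4 at 103 and 101 TPM. Whether activators and repressors stand level can therefore not be read from these ratios. The log2 ratio was -0.10, -0.10, -0.09, -0.05 and -0.13 in siCtrl libraries 1 to 5 and -0.20, -0.23, -0.12, -0.20 and -0.22 in siDDX41 libraries 1 to 5. The groups overlapped and their means differed by -0.10, as both sums were lower, the activators from 137 ± 0.903 to 108 ± 4.05 TPM and the repressors from 146 ± 3.51 to 124 ± 2.59 TPM. Without E2F6 this difference was gone, at 0.0025. The log2 ratio of activators to E2F7 and E2F8 was 0.61, 0.60, 0.58, 0.57 and 0.59 in siCtrl libraries and 0.30, 0.21, 0.27, 0.22 and 0.18 in siDDX41 libraries. The groups did not overlap, and the means differed by -0.36. The sum of E2F7 and E2F8 was 91.1 ± 1.03 TPM in siCtrl and 91.8 ± 2.26 TPM in siDDX41 libraries, where the TPM scale ran lower.

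The largest shifts lay within classes, for E2F1 over E2F3 and for E2F4 over E2F5, where the value of E2F5 is uncertain. The ratios within classes were formed after the fold changes were seen and are a description only. E2F1 stood at 1.93 ± 0.0802 times the level of E2F3 in siCtrl libraries and at 0.906 ± 0.0316 times in siDDX41 libraries. E2F4 stood at 16.6 ± 1.13 times the level of E2F5 and then at 7.13 ± 0.462 times. For E2F7 and E2F8 the ratio went the other way, from 2.83 ± 0.0900 to 3.68 ± 0.172. On the log2 scale this shift was 0.38, about as large as the -0.36 of activators over E2F7 and E2F8.

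E2F1 to E2F6 bind DNA as dimers with a DP protein, and both partners fell. TFDP1, the main partner, went from 233 ± 3.37 to 174 ± 5.99 CPM (SD, n = 5), a log2 fold change of -0.42 ± 0.03 (SE), adjusted p = 4.3e-14. TFDP2 went from 47.1 ± 2.18 to 37.0 ± 1.04 CPM, a log2 fold change of -0.35 ± 0.04 (SE), adjusted p = 5.2e-09. In the MuvB complex and its partners, which repress or activate late cell cycle genes depending on what they are bound to, 5 of 8 genes were downregulated and 1 was upregulated, beside 32.1% and 30.3% of all tested genes. FOXM1, the activator of G2/M genes, went from 509 ± 19.0 to 221 ± 13.5 CPM, a log2 fold change of -1.20 ± 0.04 (SE), adjusted p = 3.8e-19. RBL2, which encodes the pocket protein p130, went from 94.9 ± 2.49 to 72.9 ± 3.15 CPM, a log2 fold change of -0.38 ± 0.03 (SE), adjusted p = 2.5e-11. The core subunits LIN52 and RBBP4 had log2 fold changes of -0.66 and -0.48. MYBL2, which encodes the activator B-MYB, and LIN54 were not called, at -0.01 and 0.07. The calls of LIN9 (-0.13, down) and LIN37 (0.38, up) were not stable, being lost in 10 and 13 of 17 alternative fits.

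Cyclin-dependent kinases and their inhibitors set how much of the pocket proteins is phosphorylated. Of 12 tested genes of this control 5 were upregulated and 5 downregulated (30.3% and 32.1% over all tested genes), and their median log2 fold change was 0.01 beside -0.0014 over all tested genes. The cyclin CCND2 was measured at 274, 252, 272, 271 and 257 CPM in siCtrl libraries and 527, 503, 515, 501 and 513 CPM in siDDX41 libraries, a log2 fold change of 0.95 ± 0.03 (SE), adjusted p = 2.2e-22. CDK6, a kinase that D cyclins activate, went from 364 ± 23.5 to 638 ± 26.0 CPM, a log2 fold change of 0.81 ± 0.04 (SE), adjusted p = 6.8e-14. The kinase inhibitor CDKN1A, a target of p53, went from 155 ± 5.72 to 218 ± 5.07 CPM, a log2 fold change of 0.49 ± 0.03 (SE), adjusted p = 3.1e-15. CCND3 (0.49) and CDK4 (0.15) also rose, whereas CCND1 fell (-0.14). CDK2, the partner of cyclin E, fell with a log2 fold change of -0.49 ± 0.03 (SE), adjusted p = 1.5e-15, and CCNE1 fell with -0.22 ± 0.04 (SE), adjusted p = 2.7e-06. The inhibitor CDKN2C also fell, with -0.56 ± 0.04 (SE), adjusted p = 1.3e-13. CDKN2A and CDKN2B did not pass the filter, with 6 and 75 counts over all libraries, and CDKN1C was listed at 0.

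Of 4 tested factors that degrade E2F proteins or kinase inhibitors 3 were downregulated (32.1% over all tested genes), SKP2 (-0.55), CCNF (-0.50) and CKS1B (-0.17). Cyclin F, the product of CCNF, marks activator and atypical E2Fs for degradation. FZR1 was not called at -0.12, but was called without siCtrl replicate 3 (adjusted p = 0.0032, over all alternatives up to 0.11). Among chromatin corepressors that pocket proteins recruit, 3 of 11 were upregulated and 4 downregulated, near the 30.3% and 32.1% of all tested genes. The histone demethylase KDM5A (0.31) and the remodeller SMARCA2 (0.31) rose, and the histone methyltransferase SUV39H1 (-0.46) and the scaffold SIN3A (-0.23) fell.

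Of 54 tested target genes of E2F at the G1/S transition 31 (57.4%) were downregulated and 5 (9.26%) upregulated, beside 32.1% and 30.3% of all tested genes, and the list median was -0.16 on the log2 scale. The largest falls were in the histone chaperone ASF1B, from 66.4 ± 2.05 to 34.0 ± 2.33 CPM with a log2 fold change of -0.96 ± 0.04 (SE), adjusted p = 1.7e-18, and in the replicative helicase subunits GINS2 (-0.73) and GINS3 (-0.65). Among the upregulated genes were the phosphatase CDC25A (0.28), the licensing factor CDC6 (0.24), BRCA2 and MCM6. Cyclin A2, PCNA and several MCM genes were among those that fell. The summed level of the list went from 9447 ± 187 to 7711 ± 169 TPM, which includes the lower TPM scale of siDDX41 libraries. With an adjusted p-value under 0.05, 9 were upregulated and 36 downregulated, beside 5626 and 5794 of all 16143 tested genes. Only 5 of the 54 genes were downregulated with a log2 fold change below -0.5, a smaller share than the 2534 of all 16143 tested genes. Above 0.5, 0 were upregulated, beside 1584 of all tested genes.

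Among G2/M genes, which are known as targets of MuvB, B-MYB and FOXM1, 27 of 33 tested genes (81.8%) were downregulated and 1 (3.03%) was upregulated, again beside 32.1% and 30.3% of all tested genes. The list median was -0.31 on the log2 scale, and 11 of these genes were downregulated with a log2 fold change below -0.5, as were 2534 of all 16143 tested genes. The kinetochore motor CENPE went from 89.9 ± 7.55 to 52.0 ± 3.52 CPM, a log2 fold change of -0.79 ± 0.06 (SE), adjusted p = 5.2e-09. Topoisomerase gene TOP2A went from 1177 ± 37.8 to 706 ± 23.8 CPM, a log2 fold change of -0.74 ± 0.03 (SE), adjusted p = 8.7e-20. The mitotic kinase PLK1 went from 172 ± 6.96 to 104 ± 4.52 CPM, a log2 fold change of -0.73 ± 0.03 (SE), adjusted p = 6.6e-18. ANLN, which encodes a scaffold of the cleavage furrow, was the only upregulated gene and rose with 0.22 ± 0.03 (SE), adjusted p = 1.4e-08.

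**Figure D4:**
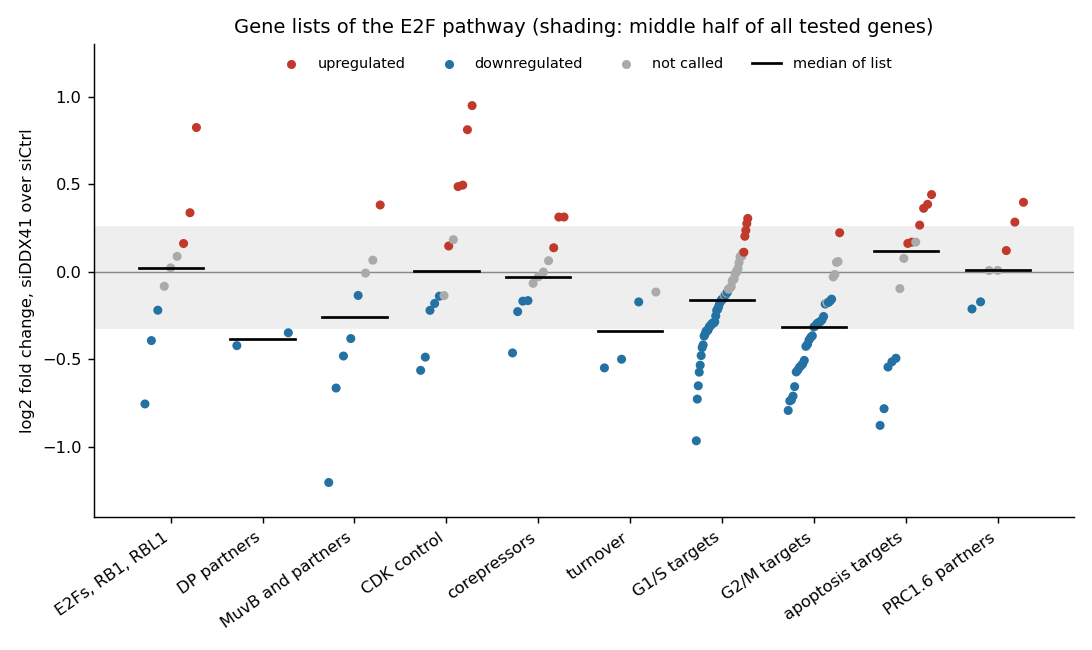
Log2 fold change of siDDX41 over siCtrl for the tested genes (points, coloured by call) of 10 gene lists of the E2F pathway, with each list's median (black line); the shaded band holds the middle 50% of all tested genes and the grey line their median. Medians of the target lists lie at -0.16 for G1/S and -0.31 for G2/M targets, below that of all genes, and at 0.12 for apoptosis targets, above it.

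Promoter letters were compared with these changes as a description. The E2F site was found in 26 of 47 G1/S targets with a window (55.3%) and in 3.99% of all genes with a window. The CHR element, searched as TTTGAA on both strands, was found in 19 of 28 G2/M targets (67.9%) and in 18.2% of all genes. Both shares of all genes include genes that were not tested. Of 11488 tested genes with a window, 723 held the E2F site and 1626 the CHR element. Over all tested genes with a window, those with the letters had slightly larger downregulated and slightly smaller upregulated shares, a difference that was not tested. Of 723 tested genes with an E2F site 210 (29.0%) were upregulated and 254 (35.1%) downregulated, against 32.6% and 33.5% of 10765 tested genes without one. Median log2 fold changes of these groups were -0.03 and 0.01. For the CHR element, 30.3% of 1626 genes with it were upregulated and 36.0% downregulated, against 32.8% and 33.2% of 9862 genes without it, with medians of -0.03 and 0.01. Smaller groups did not all follow this. Of 36 genes with 2 or more E2F sites 33.3% were downregulated, and of 110 genes with both elements 33.6% were upregulated. With only TTTCGCGC and TTTGGCGC as the E2F site (265 genes) 34.0% were downregulated.

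Of 14 tested apoptosis genes known as targets of E2F1, 6 (42.9%) were upregulated and 5 (35.7%) downregulated, not far from the 30.3% and 32.1% of all tested genes, and the list median was 0.12 on the log2 scale. With a log2 change over 0.5 as well, 0 were upregulated and 4 downregulated, beside 1584 and 2534 of all 16143 tested genes. TP73, a relative of p53 that E2F1 induces directly, went from 16.9 ± 1.71 to 9.22 ± 0.376 CPM, a log2 fold change of -0.88 ± 0.07 (SE), adjusted p = 1.5e-12. The initiator caspase gene CASP9 fell with -0.78 ± 0.07 (SE), adjusted p = 1.5e-11, and BCL2L11 fell with -0.54 ± 0.04 (SE), adjusted p = 6.3e-14. By contrast TP53INP1 rose with 0.44 ± 0.04 (SE), adjusted p = 7.4e-11, CASP8 with 0.38 ± 0.03 (SE), adjusted p = 2.9e-11 and APAF1 with 0.36 ± 0.04 (SE), adjusted p = 4.3e-09. Genes of the same cell death pathway, CASP9 and its activator APAF1, thus changed in opposite directions.

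Of 7 tested partners of E2F6 in the Polycomb complex PRC1.6, 3 were upregulated and 2 downregulated (30.3% and 32.1% over all tested genes). The scaffold MGA rose from 74.3 ± 7.13 to 97.7 ± 4.00 CPM, a log2 fold change of 0.40 ± 0.05 (SE), adjusted p = 5.8e-06, and RNF2 rose with 0.28 ± 0.04 (SE), adjusted p = 6.5e-08. L3MBTL2 was upregulated (0.12), but not without siCtrl replicate 4 (log2 fold change 0.10, adjusted p = 0.016), its highest adjusted p-value over 17 alternatives. MAX (-0.21) and CBX3 (-0.17) fell, and PCGF6 and YAF2 were not called. RING1 was listed at 0 in a run of 11 genes that were all at 0, among them the ribosomal protein gene RPS18, and its 0 cannot be read as a lack of expression either. Germline genes that this complex silences were at or near 0. STAG3 was the only 1 of 7 that passed the filter, at 0.482 and 0.731 CPM, and it was not called (log2 fold change 0.59 ± 0.26 (SE), adjusted p = 0.041).

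The tested genes most like E2F1 over the 10 libraries, by the Pearson correlation of log2 CPM, were TOP1MT (r = 0.9995), HPRT1 (r = 0.9982), GALNT15 (r = 0.9979), JAZF1 (r = 0.9975) and ERLIN1 (r = 0.9968). All 5 were downregulated, with log2 fold changes from -0.35 for TOP1MT to -3.18 for GALNT15. These points fall into the 2 groups of libraries, and 158 tested genes had an r over 0.99, so the likeness mainly restates the difference between the groups. TOP1MT, which encodes a mitochondrial topoisomerase, was measured at 66.9, 68.0, 66.4, 67.0 and 67.2 CPM in siCtrl libraries and 52.6, 51.7, 54.5, 52.8 and 51.8 CPM in siDDX41 libraries. In siDDX41 libraries its highest value was in library 3, as for E2F1.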

How the data were processed

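The authors prepared libraries from polyadenylated RNA with a stranded kit, aligned single reads against hg38 by STAR 2.7 using Gencode 25, and deposited whole read counts per gene from featureCounts 1.6, without normalization. The sources used here do not give the strand setting of the counting, nor how multiply mapped reads were treated.

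Groups and replicates were taken from the labels. Identifiers without their version were joined to GENCODE release 44 on the same build, with 56948 of 63299 matched, for names and exon lengths. Counts were tested in R 4.3.3 with edgeR 4.0.16 (filterByExpr, TMM scaling, robust quasi-likelihood fit, 5 siDDX41 against 5 siCtrl libraries). CPM used TMM-scaled totals, and TPM used all exons of a gene. Alternatives used DESeq2 1.42.0, limma 3.58.1, other scalings, filters and thresholds, a replicate block, and each library left out. No 2 libraries of a group agreed within sampling noise (chi-square per degree of freedom 1.84 to 6.18 over 20 pairs). Promoter letters were searched in Python 3.11.15.

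Genes followed singly were DDX41, every member, of each list up to 3 called genes per direction with the largest change and a mean of at least 1 CPM (every gene for lists of up to 10, not all of them named in the text), the 5 genes most correlated with E2F1, and pseudogenes of members or genes sharing exon bases with them, with at least 10 counts. From the G1/S list 1 gene was kept in the counts but is not reported here by itself. Other genes were named after their values were seen. The members and lists were chosen with earlier results of these data known.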

Additional observations from a re-analysis of the deposited data

Results flagged for a closer look

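In 187 groups of 5 values, a library was picked out where its gap to the nearest other library took up most of the range of its group, which chance gives in about 1 of 20 groups. This held for 15 groups. Among the E2F genes only E2F6 in siDDX41 library 1 stood apart, at 38.8 CPM against a next value of 36.0 CPM. The same library had the highest mitochondrial share, 2.29% against 2.07%, and the lowest SUV39H1, 37.0 CPM against 40.4 CPM. E2F6 was not called with or without this library.

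Among other genes of the pathway, siCtrl library 3 was low for CDKN1A at 145 CPM, siDDX41 library 5 was high for KDM5A at 158 CPM, siDDX41 library 2 was high for BCL2L11 at 49.7 CPM and for RUNX2 at 26.1 CPM, and siCtrl library 5 was low for CBX3 at 482 CPM. For SPARC siCtrl library 2 was low at 2749.6 CPM. The called genes among these had groups that did not overlap, as did 55.9% of all tested genes.

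Further cases were genes with hardly any counts, where 1 to 3 reads set a library apart. They were SMC1B and SLC25A31 in siCtrl library 5, both at 0.0417 CPM, MAEL and DDX4 in siCtrl library 4 at 0.0856 and 0.0428 CPM, TDRD1 in siDDX41 library 1 at 0.0460 CPM and PECAM1 in siDDX41 library 4 at 0.128 CPM.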

How the results depend on the processing

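Each called E2F gene kept its direction and its call in the 7 other fits and in the 10 fits without a library. Requiring a log2 change over 0.5 moved the counts up and down most, by construction. They became 1 and 1 for the members and 1584 and 2534 for all genes. For the MuvB list they became 0 up and 2 down, for kinase control 2 and 1. Corepressors and PRC1.6 partners had 0 and 0. G1/S targets had 0 up and 5 down, G2/M targets 0 up and 11 down, and apoptosis genes 0 up and 4 down. The dimerisation partners had 0 down and the turnover factors 1 down. An adjusted p-value under 0.05 gave 9 upregulated G1/S targets and 1 upregulated germline gene (STAG3). With it 36 G1/S targets were downregulated, and over all tested genes 5626 were upregulated and 5794 downregulated.

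The 1 upregulated MuvB gene, LIN37, became 0 with library totals, no filter, a mean CPM of at least 1, the DESeq2 Wald test, limma-voom and the replicate block, and without a library the count was 0 to 1. Without E2F6 the ratio of activators to repressors turned from -0.10 to 0.0025. Uncalled values near 0 also changed sign. MYBL2 went to 0.0021 with the DESeq2 Wald test (-0.029 to 0.012 without a library). PCGF6 went to -0.0044 with library totals and -0.00085 with a mean CPM of at least 1 (-0.020 to 0.035 without a library). In the same settings YAF2 went to -0.0036 and -3.5e-05 (-0.026 to 0.037 without a library). CDH1 changed sign without a library (-0.055 to 0.17). The cause was not tested.

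With the replicate number as a block, 3 members went up and 3 down, and 4790 of all genes went up and 5097 down. Deviations of same-numbered libraries correlated by -0.10 to 0.079, and 2 of 10 libraries correlated best with their own number, so the numbers were not taken to pair the libraries. Depth limits genes with few counts, such as the germline list.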

Other observations

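Some genes of the lists were listed at or near 0. RING1 sat in a run of 11 protein-coding genes at 0 on chromosome 6 (chr6:33004182-33284832), which includes HLA-DPA1, RXRB and RPS18. RYBP, a RING1 partner, held 28 counts over all 10 libraries, between PROK2 with 9 and SHQ1 with 8580. CDKN1C was listed at 0 between KCNQ1 with 68 and SLC22A18 with 119 counts over all libraries. CDKN2A held 6 counts between MTAP with 14533 and CDKN2B with 75. These genes were looked up after their values were seen. Whether their low counts, such as that of RYBP, reflect a lack of expression was not tested.

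Of 6 tested mesenchymal and osteosarcoma genes 2 were upregulated and 3 downregulated (30.3% and 32.1% over all tested genes). COL5A2, a fibrillar collagen gene, went from 239 ± 14.2 to 70.2 ± 5.97 CPM (SD, n = 5), a log2 fold change of -1.77 ± 0.06 (SE), adjusted p = 1.0e-12. CD44 rose with 0.37 ± 0.03 (SE), adjusted p = 9.9e-12, SPARC with 0.18 ± 0.02 (SE), adjusted p = 1.4e-07, and RUNX2, a transcription factor of bone cells, fell with -0.40 ± 0.04 (SE), adjusted p = 2.2e-09. VIM fell slightly, with -0.09 ± 0.02 (SE), adjusted p = 0.0017. COL1A1 was not called at -0.09, but was called in 3 of 17 alternative fits, with no filter, with the replicate block and without siCtrl replicate 4 (adjusted p from 0.0051 to 0.14 over all 17). COL1A2 stood at 0.448 CPM in siCtrl libraries beside 1875 CPM for COL1A1. Of the markers of other cell types the 3 tested genes were not called, with EPCAM at 7.99 and 8.31 CPM, and PECAM1 was near 0.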
